A study of Arabidopsis thaliana with 16 samples.

Results

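Transcript levels in Arabidopsis seedlings that lacked both LHY and CCA1 were compared with those of wild-type seedlings at the end of the night, 15 min before dawn. The comparison rests on 4 of the 16 ATH1 arrays in the series, with 2 arrays of the wild type Wassilewskija (WS) and 2 of the lhy-21; cca1-11 double mutant, a T-DNA knock-out of both genes in that background, written lhy cca1 below. The other 12 arrays, taken after dawn from the same genotypes, were used only to estimate the spread between replicates. Seedlings of both genotypes were 9 days old and had received 4 days of cold in the dark, 3% sucrose in the medium, 22 °C and cycles of 18 h light of 60 to 65 µE and 6 h dark. RNA came from whole seedlings, with all seedlings of a plate pooled into a sample, so fewer cells of a type and less RNA per cell cannot be told apart. No label says that the replicates were separate cultures, and the spread behind each p-value is that between the samples as labelled, possibly only technical.

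LHY and CCA1 are related MYB-type transcription factors of the plant circadian clock. Their transcripts peak around dawn, and the proteins repress evening-phased clock genes such as GI, TOC1 and members of the evening complex. Through the clock they also shape the daily timing of photosynthesis, starch use, growth and secondary metabolism. Samples taken in the dark before dawn show the state in which each genotype meets the morning light.

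Of 22746 non-control probe sets, 14878 were bright enough to be tested, and the remaining 7868 were not tested. A small share of the tested probe sets, 239 or 1.61%, differed between the genotypes at a Benjamini-Hochberg adjusted p under 0.05 in limma. Of these, 139 (0.934%) were higher in lhy cca1 and 100 (0.672%) were lower. Under median centring of the arrays in place of the deposited scaling, the split turned to 109 higher and 120 lower, so that the higher calls made up 47.6% and not 58.2%. At an unadjusted p under 0.05 there were 2120 probe sets, 14.2% of those tested. At least 2-fold differences accounted for 55 probe sets higher (0.37%) and 44 lower (0.296%), and at least 4-fold differences for 10 and 8. The median called difference was 0.90 log2 among the higher and -0.92 log2 among the lower, against 0.01 log2 over all tested probe sets. In all 239 the signals of the 2 genotypes did not overlap. The background for that property was high, because 23.3% of tested probe sets had both lhy cca1 arrays above both WS arrays and 20.7% had both below. The plot of difference against signal shows the calls at all signal levels, with the largest differences on the lower side.

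**Figure D1:**
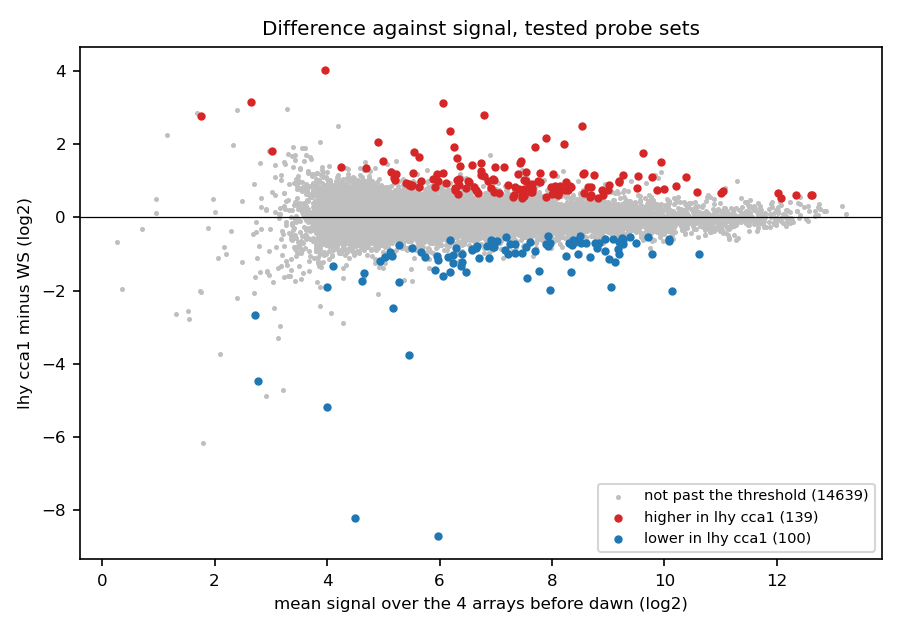
Each point is 1 of the 14878 tested probe sets, with the mean log2 signal of the 4 arrays before dawn on the x axis and the log2 difference, lhy cca1 minus WS, on the y axis. Red points are the 139 called higher, blue points the 100 called lower, and 2 blue points lie below -8.

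The mutant library of replicate 2 stood apart on the array's control for 25S ribosomal RNA. The rRNA signals were 142 and 57.7 in WS replicates 1 and 2, and 63.0 and 538 in lhy cca1 replicates 1 and 2. Replicates of a genotype correlated at 0.939 in WS and 0.937 in lhy cca1 over log2 signals. Leaving out lhy cca1 replicate 2 reduced the count of calls from 239 to 45, of which 43 were among the 239. Leaving out WS replicate 1 reduced it to 62, WS replicate 2 to 119 and lhy cca1 replicate 1 to 187, so each count rests on the number of arrays as well. The part of the ribosomal RNA signal in these results was not tested beyond the fit that holds it as a covariate, which called 152 probe sets, 146 of them among the 239. The leaf marker RCA, Rubisco activase, had signals of 6200.1 and 6784 in WS and 6161 and 7084 in lhy cca1. The root marker PYK10, a beta-glucosidase, had 3242 and 4452 in WS and 4372 and 3352 in lhy cca1, and the root-hair gene EXPA7 was not above the 40th percentile of any of the 4 arrays. The transcripts of a leaf and a root marker gene thus differed by 0.03 and 0.01 log2 with overlapping genotypes.

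No probe set is named for LHY, CCA1, TOC1, PRR9, PRR7, PRR5, ELF4 or LUX in the annotation used here, so the targeted genes could not serve as a check of the genotype labels. Of the genes called in the comparison, 96 carry a single name, 59 higher and 37 lower. A further 139 called probe sets carry no gene name and 3 carry several. These were 2.13% and 1.02% of the tested probe sets of each kind, against 1.21% of those with a single gene.

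Among named genes SEC was the most strongly lowered. SEC, or SECRET AGENT, encodes an O-GlcNAc transferase, an enzyme that adds a sugar to proteins of the nucleus and cytosol. Its signal was 155 and 169.7 on the WS arrays and 13.6 and 10.3 on the lhy cca1 arrays, where it lay below the 40th percentile. Against that percentile as a floor it was at least 7.58-fold lower in lhy cca1 (limma adjusted p = 1.02e-07). Both lhy cca1 arrays lay far below both WS arrays, and the gap remained past the threshold in all 14 alternative fits, each of the 4 leave-one-out fits included. The gene that neighbours SEC on chromosome 3, AT3G04230, which encodes a ribosomal protein of the small subunit, fell too, from 170.1 and 178 in WS to 74.7 and 86.0 in lhy cca1 (-1.12 ± 0.158 log2; limma adjusted p = 0.00119). Of 2574 pairs of neighbouring genes that were both tested, this pair alone had both members called.

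The next lowest named genes were each past the threshold. AT2G25510, a gene of no name in the annotation, was the brightest of them, with signals of 2243 and 2280.4 in WS and 659 and 469 in lhy cca1, a difference of -2.02 ± 0.238 log2 (limma adjusted p = 0.000218). AT2G43590, which encodes a protein of the chitinase family, had 699.5 and 354 in WS and 134 and 118 in lhy cca1, a difference of -1.98 ± 0.278 log2 (limma adjusted p = 0.00117). The WS arrays differed from each other by far more than the lhy cca1 arrays, yet stayed above both of them. Signals of AT1G10850, which encodes a leucine-rich repeat receptor kinase, were 111 and 122 in WS and 36.2 and 41.2 in lhy cca1 (-1.59 ± 0.193 log2; limma adjusted p = 0.000311). AT1G52000, which encodes a jacalin-type lectin, had 175 and 127 in WS and 54.4 and 51.7 in lhy cca1 (-1.49 ± 0.166 log2; limma adjusted p = 0.00011). AT3G16530, which encodes a legume-type lectin, had 509 and 259 in WS and 152 and 114 in lhy cca1 (-1.46 ± 0.243 log2; limma adjusted p = 0.00485). Both lectin genes were higher on WS replicate 1 than on WS replicate 2. Their genotypes did not overlap, which the rule for named genes required.

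PUB19, which encodes a plant U-box ubiquitin ligase, had 46.5 and 44.1 in WS, and 26.3 and 6.91 in lhy cca1 (-1.75 ± 0.377 log2; limma adjusted p = 0.0263). The drop was much deeper on lhy cca1 replicate 2 than on replicate 1. The same held for AGL87, a MADS-box gene, with 109 and 91.8 in WS and 58.8 and 23.3 in lhy cca1 (-1.44 ± 0.311 log2; limma adjusted p = 0.0267). TBL26, of the family of trichome birefringence-like proteins that act on wall polysaccharides, was at least 2.01-fold lower, with 41.3 and 44.5 in WS and 19.8 and 11.3 in lhy cca1, where it was dim (limma adjusted p = 0.0238). Signals of AT1G27480, which encodes a lecithin:cholesterol acyltransferase-like protein, were 128 and 132 in WS and 58.6 and 52.3 in lhy cca1 (limma adjusted p = 0.000434). AT1G78020, which encodes a zinc-finger protein of the FCS-like family, fell from 855 and 838 to 411 and 319 (limma adjusted p = 0.000637). Among the 15 lowest genes, AT1G65870, which encodes a dirigent-like protein, fell from 46.8 and 48.4 to 24.7 and 20.0 (limma adjusted p = 0.0176), and AT5G16200 fell from 43.2 and 50.1 to 18.0 and 23.3 (limma adjusted p = 0.042). In PUB19, AT1G65870 and AT5G16200, 1 of 2 lhy cca1 arrays lay above the 40th percentile. The calls of PUB19, AGL87, TBL26 and AT1G65870 were lost on leaving out WS replicate 1, WS replicate 2 or lhy cca1 replicate 2, with an adjusted p of up to 0.327, that of AT3G16530 on leaving out WS replicate 1 or lhy cca1 replicate 2, and that of AT5G16200 on leaving out any of the 4 arrays.

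**Figure D2:**
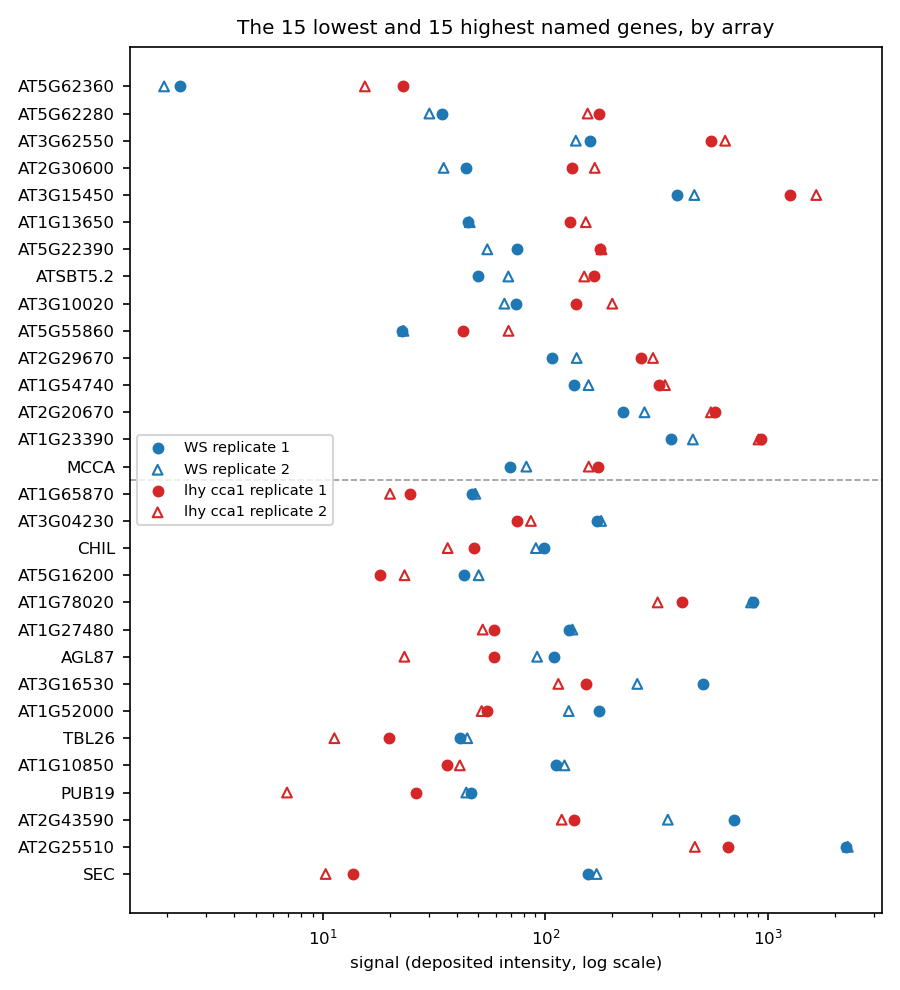
Signals (deposited intensity, log axis) of the 15 highest and 15 lowest named genes before dawn, with filled circles for replicate 1 and open triangles for replicate 2, blue for WS and red for lhy cca1. No red symbol overlaps the blue ones of its gene, because the rule for named genes required it. Symbols below the 40th percentile of their array, which lay between 20.3 and 22.0 on these 4 arrays, cannot be read as folds.

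Transcripts of 59 named genes were higher in lhy cca1, and most of the strongest carry only a locus code. AT3G62550, which encodes a universal stress protein, had signals of 159 and 137 in WS and 552 and 641 in lhy cca1, a 4.03-fold difference (2.01 ± 0.183 log2; limma adjusted p = 1.42e-05). AT3G15450, which encodes a protein related to an aluminium-induced protein, rose from 391 and 466 to 1260.0 and 1646 (1.75 ± 0.25 log2; limma adjusted p = 0.00119), and was the brightest of the strongly raised genes. A relative of it, AT4G27450, was raised as well, from 148 and 169 to 285 and 341 (0.98 ± 0.211 log2; limma adjusted p = 0.0263). AT4G27450 lies outside the rule for named genes and was picked after its values were seen, and its call was lost on leaving out any of the 4 arrays (adjusted p of up to 0.251). The lhy cca1 arrays lay above both WS arrays in all 3, as in every call higher in lhy cca1.

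The pair of probe sets for AT2G30600, which encodes a BTB/POZ protein, gave like values. The brighter had 43.9 and 34.9 in WS and 131 and 167 in lhy cca1 (1.92 ± 0.25 log2; limma adjusted p = 0.000637). The other had 26.0 and 24.4 in WS and 74.7 and 102 in lhy cca1 (1.79 ± 0.252 log2; limma adjusted p = 0.00117). AT1G13650, of no name in the annotation, rose from 44.9 and 45.7 to 129 and 152 (1.63 ± 0.219 log2; limma adjusted p = 0.000863). AT1G23390, which encodes an F-box protein with Kelch repeats, rose from 368 and 459 to 925 and 906 (1.15 ± 0.185 log2; limma adjusted p = 0.00354). ATSBT5.2, a subtilisin-type protease gene, rose from 49.8 and 68.1 to 166 and 149 (1.43 ± 0.265 log2; limma adjusted p = 0.00965). The rule for named genes required the mutant arrays of these 4 genes to lie above the wild-type arrays. The AT1G23390 call was lost without WS replicate 1, and the ATSBT5.2 call without WS replicate 1 or without either lhy cca1 array.

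AT5G62360, which encodes a pectin methylesterase inhibitor-like protein, was dim in WS at 2.29 and 1.94 and gave 23.0 and 15.5 in lhy cca1, where 1 of 2 arrays lay above the 40th percentile (limma adjusted p = 0.0218). No fold is given for it, because the mean in lhy cca1 lay below that floor. The call was lost on leaving out any of the 4 arrays, with an adjusted p of up to 0.131. AT5G62280, of no name in the annotation, had 34.3 and 30.1 in WS and 174 and 155 in lhy cca1 (2.35 ± 0.538 log2; limma adjusted p = 0.0337), and this call too was lost on leaving out any array, with an adjusted p of up to 0.197. Among the 30 strongest named genes, 12 stayed past the threshold in all 14 alternative fits, namely AT3G62550, AT2G30600, AT3G15450, AT1G13650, SEC, AT2G25510, AT2G43590, AT1G10850, AT1G52000, AT1G27480, AT1G78020 and AT3G04230.

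Probe sets that name no single gene held the extremes. Probe set 261569_at had 1258 and 1307 in WS and 1.90 and 4.95 in lhy cca1, at least 60.0-fold lower (limma adjusted p = 5.66e-10). Probe set 266719_at had 382 and 395 in WS and 2.88 and 0.59 in lhy cca1, at least 18.2-fold lower (limma adjusted p = 3.83e-07). Both were bright in WS and dim in the mutant on both arrays. Probe set 256766_at was at least 4.51-fold lower and 250476_at at least 1.51-fold lower, while 265842_at was dim in both genotypes. In the other direction, 248910_at was at least 3.09-fold higher, with 3.63 and 4.12 in WS and 66.6 and 59.3 in lhy cca1 (limma adjusted p = 2.54e-05). Probe set 252415_at rose from 16.1 and 31.5 to 164 and 239, 259751_at from 33.8 and 51.9 to 289 and 289.6, and 253161_at from 121 and 200.4 to 755 and 1015, all past the threshold. The remaining probe set, 248160_at, was dim in both. Of the alternative fits, 250476_at passed in 11 of 14, 253161_at in 12 of 14, 265842_at in 7 of 13 and 248160_at in 10 of 13. The others named here passed in all 14.

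Genes of flavonoid synthesis included 2 that fell in the mutant. Of 7 tested members of a list of phenylpropanoid and flavonoid genes, 2 fell, none rose and 5 did not pass. Over all tested probe sets 0.672% were called lower. The list median was -0.57 log2 against 0.01 log2 for all tested probe sets. CHIL encodes a chalcone isomerase-like protein that aids flavonoid production. Its signals were 98.5 and 90.6 in WS and 48.0 and 36.4 in lhy cca1 (-1.18 ± 0.208 log2; limma adjusted p = 0.00737). UGT78D1, which encodes a flavonol rhamnosyltransferase, had 101 and 79.7 in WS and 54.3 and 34.6 in lhy cca1 (-1.05 ± 0.221 log2; limma adjusted p = 0.0222). The genotypes did not overlap in either gene, as in every call, and the lowest signals were on lhy cca1 replicate 2. HCT, an enzyme of lignin and phenylpropanoid synthesis, gave 643 and 695 in WS and 559.9 and 508 in lhy cca1 (limma adjusted p = 0.298). UGT84A1, which encodes a glucosyltransferase of phenylpropanoids, was dim in both genotypes (limma adjusted p = 0.347). The remaining members, UGT78D2, AT4G14090 and DFR, did not pass. AT1G06000, which encodes a flavonol rhamnosyltransferase outside the list, fell from 142 and 129 to 89.0 and 63.6 (-0.84 ± 0.199 log2; limma adjusted p = 0.0408). It was picked after its values were seen, and its call was lost without lhy cca1 replicate 2 or without either WS array. Both list calls were lost without lhy cca1 replicate 2, when the list median was -0.48 log2, and without WS replicate 1, when it was -0.88 log2.

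MCCA, a gene of leucine breakdown, was higher in the mutant. The list of sugar starvation and leucine breakdown genes had 4 tested members, with a median of 0.71 log2. Of these 1 rose, against 0.934% of all tested probe sets, and 3 did not pass. All 4 had both lhy cca1 arrays above both WS arrays, as did 23.3% of all tested probe sets. MCCA encodes a subunit of methylcrotonyl-CoA carboxylase, an enzyme of mitochondrial leucine breakdown. Its signals were 69.0 and 82.1 in WS and 172 and 156 in lhy cca1 (1.12 ± 0.255 log2; limma adjusted p = 0.0328). IVD, which encodes isovaleryl-CoA dehydrogenase of the same pathway, gave 82.3 and 93.0 in WS and 160.1 and 154 in lhy cca1 (0.84 ± 0.215 log2; limma adjusted p = 0.0623). It passed in 2 of 14 alternative fits, that of the 4 arrays alone (adjusted p = 0.0191) and that with the replicate number as a block. MCCB, the partner subunit of MCCA, gave 192 and 157 in WS and 261 and 247 in lhy cca1 (limma adjusted p = 0.152). AKINBETA1, a subunit of the SnRK1 energy-sensing kinase, gave 177 and 237 in WS and 298 and 311 in lhy cca1 (limma adjusted p = 0.241). The MCCA call was lost on leaving out any of the 4 arrays, with an adjusted p of up to 0.221. In the wider list of 13 amino acid breakdown genes MCCA was the only call, beside the same 0.934%, and the median was 0.13 log2.

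Photosynthesis genes of the nucleus gave a single call. Of 27 tested members, 1 rose, against 0.934% of all tested probe sets, none fell and the median was 0.07 log2. The call was LHCB4.1, which encodes the antenna protein CP29 of photosystem II, at 3583 and 3601 in WS and 5179 and 5249.6 in lhy cca1 (0.54 ± 0.123 log2; limma adjusted p = 0.0337). Its relatives gave values in both directions, 0.31 ± 0.143 log2 for LHCB4.2 (limma adjusted p = 0.34) and -0.72 ± 0.222 log2 for LHCB4.3 (limma adjusted p = 0.128, and 0.0457 in the fit of the 4 arrays alone). LHCB4.3 passed in 2 of 14 alternative fits, that one and the one with the replicate number as a block. ATPC1, which encodes a subunit of the plastid ATP synthase, gave 3198 and 3459.9 in WS and 4312 and 4551 in lhy cca1 (limma adjusted p = 0.0711). Of 10 tested genes of tetrapyrrole synthesis, the pathway of chlorophyll and haem, NOL alone rose, from 102 and 96.1 to 178 and 143 (0.69 ± 0.155 log2; limma adjusted p = 0.0319). That 1 call of 10 stands beside the same 0.934% of all tested probe sets. NOL takes part in the turnover of chlorophyll b. The calls of LHCB4.1 and NOL were lost with arrays centred on their median and on leaving out any of the 4 arrays.

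**Figure D3:**
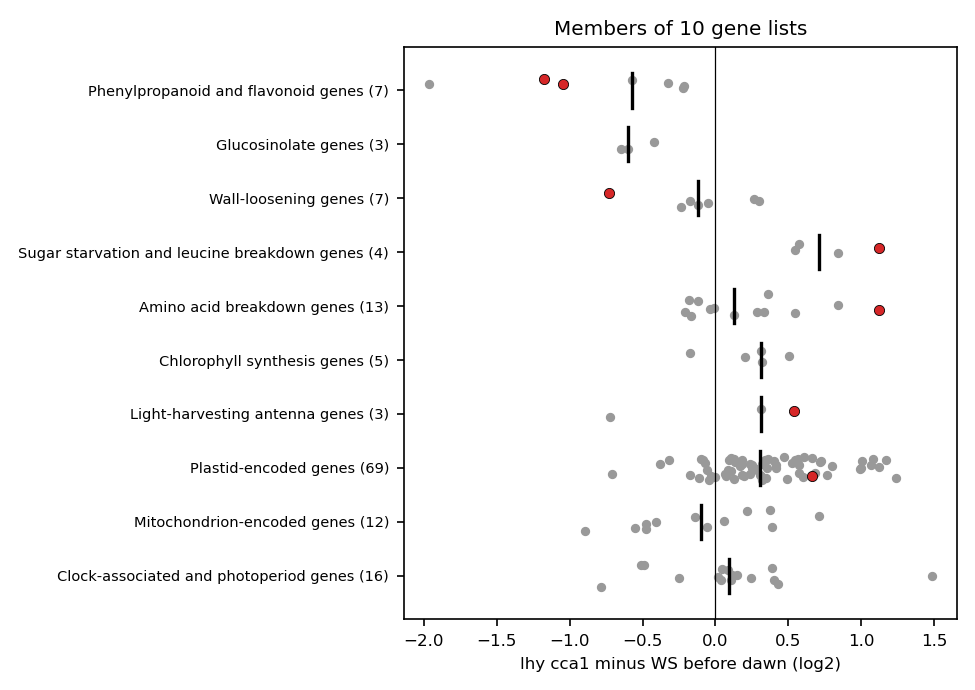
Log2 differences before dawn, lhy cca1 minus WS, for the tested members of 10 gene lists, with the number of members after each name. Grey points did not pass the threshold, red points did, and black bars are list medians. The phenylpropanoid and glucosinolate members all lie left of 0, and the sugar starvation members all lie right of it.

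Most plastid-encoded genes had a difference above 0, but unevenly between the mutant arrays. Of 69 tested members 1 rose, or 1.45%, against 0.934% of all tested probe sets called higher. It was rpl22, which encodes a plastid ribosomal protein and rose from 1581 and 1684 to 2504 and 2657 (0.66 ± 0.144 log2; limma adjusted p = 0.0267). Its call was lost on leaving out any of the 4 arrays, with an adjusted p of up to 0.22. The list median was 0.31 log2, with 57 of 69 differences above 0, against 52.0% of all tested probe sets. The median signal of the 69 genes was 621 and 756 in WS and 762 and 1160.5 in lhy cca1. For 55 of the 69 the brightest of the 4 arrays was lhy cca1 replicate 2, the array with the high 25S signal, and without it the list median was 0.02 log2. The photosystem I gene psaA gave 630.1 and 679 in WS and 899 and 2096 in lhy cca1, and the photosystem II gene psbD gave 115 and 174 in WS and 163 and 686 in lhy cca1. Neither passed the test (limma adjusted p = 0.162 and 0.256). Of 14 alternative fits psaA passed in 2, those with the replicate number as a block and without lhy cca1 replicate 1. The psbD difference passed in the latter alone. By contrast psbB, another photosystem II gene, was even on the mutant arrays, at 964 and 952 against 356 and 648 in WS (limma adjusted p = 0.125). It passed in only 1 of 14 alternative fits, that of the 4 arrays alone (adjusted p = 0.0228). The part of the 25S signal in the plastid values was not tested. Of 12 tested mitochondrion-encoded genes none passed in limma, 3 had an unadjusted p under 0.05 against 14.2% of all tested probe sets, and their median was -0.10 log2.

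**Figure D4:**
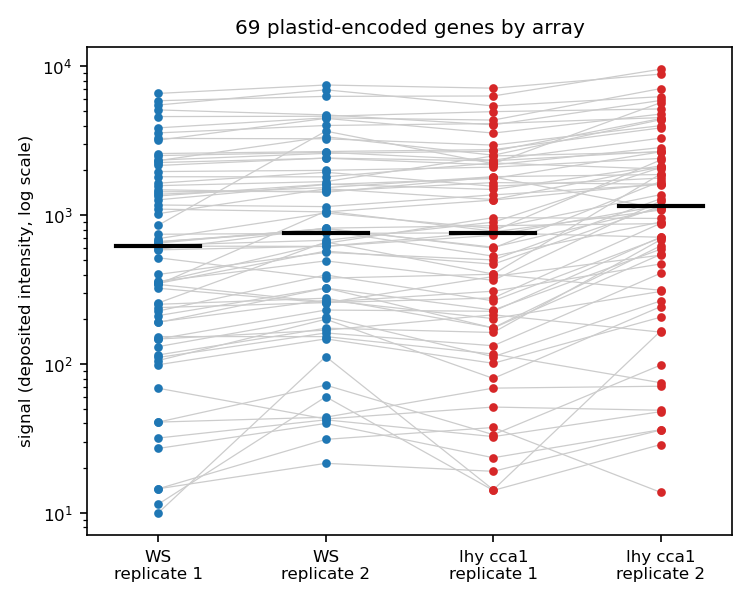
Signals (deposited intensity, log axis) of the 69 plastid-encoded genes on each of the 4 arrays before dawn, with grey lines joining a gene and black bars for the median of each array. The median of lhy cca1 replicate 2 is 1160.5 and lies above those of the other 3 arrays, which are 621, 756 and 762.

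The list of clock-associated and photoperiod genes gave no call. CCL, a called gene outside the list, rose from 425 and 402 in WS to 735 and 910 in lhy cca1 (0.98 ± 0.159 log2; limma adjusted p = 0.00388). It was picked after its values were seen, and its call was lost in 1 of 14 alternative fits, that without lhy cca1 replicate 2. Of 16 tested members of the list of clock-associated and photoperiod genes none passed in limma and 4 had an unadjusted p under 0.05 against 14.2% of all tested probe sets, with a median of 0.10 log2. GI, the GIGANTEA gene of the evening clock and of photoperiodic flowering, was dim in both genotypes, at 2.21 and 7.98 in WS and 11.8 and 11.8 in lhy cca1 (limma adjusted p = 0.106). Both mutant arrays lay above both WS arrays, and no fold is given. GI passed in only 1 of 13 alternative fits, that without WS replicate 2, the higher of the WS arrays. AT4G01280, a MYB-related gene of the REVEILLE family, gave 55.8 and 56.2 in WS and 42.6 and 36.4 in lhy cca1 (-0.51 ± 0.204 log2; limma adjusted p = 0.258).

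The 3 tested glucosinolate genes were all lower in signal, and none passed in limma. Their genotypes did not overlap, against 20.7% of all tested probe sets with both lhy cca1 arrays below both WS arrays. BCAT4, which starts the chain elongation of methionine for glucosinolates, gave 1089 and 1112 in WS and 694 and 708 in lhy cca1 (limma adjusted p = 0.199). GSTU20, a glutathione S-transferase gene counted with them, gave 1737 and 1123 in WS and 1003 and 846 in lhy cca1 (limma adjusted p = 0.112). AT2G31790, which encodes a glycosyltransferase of the group, gave 309.7 and 338 in WS and 268 and 218 in lhy cca1 (limma adjusted p = 0.236). All 3 had an unadjusted p under 0.05 against 14.2% of all tested probe sets, and the list median was -0.60 log2. GSTU20 and BCAT4 each passed in only 1 of 14 alternative fits. For GSTU20 this was the fit without WS replicate 2, and for BCAT4 that of the 4 arrays alone (adjusted p = 0.0162).

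Single calls appeared in lists that otherwise gave none. Over all tested probe sets 0.672% were called lower and 0.934% higher. XTH32, a wall-loosening xyloglucan enzyme gene, fell from 188 and 232 to 125 and 126 (-0.73 ± 0.138 log2; limma adjusted p = 0.0116), the only call among 7 wall-loosening genes. THI2.2, which encodes a thionin, a small antimicrobial protein, rose from 31.7 and 32.4 to 59.3 and 61.7 (0.92 ± 0.198 log2; limma adjusted p = 0.0265), the only call among 13 WRKY and jasmonate genes. The XTH32 call was lost without WS replicate 2 or either lhy cca1 array, and the THI2.2 call on leaving out any of the 4 arrays. The 4 cold response genes, COR47, LTI30, COR15A and COR15B, gave differences from -0.60 to 0.42 log2 with no call in limma and 1 unadjusted p under 0.05, against 14.2% of all tested probe sets. The lists for respiration (18 tested), autophagy (10) and sugar transporters (13) also gave no call in limma, with 2, 2 and 1 members at an unadjusted p under 0.05, against the same 14.2%.

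Other called genes with a known role were picked after their values were seen. THIC, which makes the pyrimidine part of thiamine, fell from 598 and 595 to 366 and 309 (-0.83 ± 0.152 log2; limma adjusted p = 0.00962). RALFL34, a gene for a peptide signal of the RALF family, fell from 724 and 754 to 514 and 490.4 (-0.56 ± 0.125 log2; limma adjusted p = 0.0312). PDF2.1, a plant defensin gene, fell from 527 and 471 to 331 and 282 (-0.71 ± 0.123 log2; limma adjusted p = 0.00708). AT1G54410, a dehydrin gene, rose from 461 and 379.6 to 767 and 869 (0.96 ± 0.135 log2; limma adjusted p = 0.00117). AT5G61590, which encodes the ERF-type repressor of wax synthesis DEWAX, rose from 261 and 211 to 482 and 351 (0.81 ± 0.19 log2; limma adjusted p = 0.0384). In all 5 genes the genotypes did not overlap, as in every call. On leaving out 1 array at a time, the AT1G54410 call remained in every fit. Without lhy cca1 replicate 2 or WS replicate 1 the other calls were lost, as were those of RALFL34 and AT5G61590 without either of the remaining arrays and that of THIC without WS replicate 2.

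Calls were more frequent among bright probe sets. With the tested probe sets cut into 4 equal groups by signal, the share called was 0.484% in the dimmest, then 0.941% and 1.83%, and 3.2% in the brightest, while the median standard error fell from 0.324 log2 in the dimmest group to 0.148 log2 in the brightest. Chromosomes 1 to 5 held 26, 20, 11, 8 and 31 called probe sets with a single gene, or 1.26%, 1.71%, 0.678%, 0.681% and 1.61% of those tested on each.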

How the data were processed

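The authors deposited linear intensity, 1 value per probe set and array. MAS5 and GCOS made these values, per the submitters' processing notes, which give no versions. Each array had been scaled to a common level: the mean after a 2% trim from either end was 100.01, and medians lay between 33.6 and 38.3. Names came only from the platform annotation, with symbols from a TAIR10.1 gene table. It gives 13513 probe sets a single gene, 503 several and 8730 none. The files' genome build is not stated, so no position is given.

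Values were converted to log2. Tested probe sets exceeded the 40th percentile of an array (19.1 to 22.0) on 2 or more of 16 arrays. A group below it on all its arrays is called dim, and its difference is then a bound against that percentile. The 8 group means were fitted in limma 3.58.1 under R 4.3.3 (lmFit, eBayes with an intensity trend, 8 residual degrees of freedom), with 2-sided tests and Benjamini-Hochberg adjustment over all 14878. Log2 values are given ± the standard error of that fit, with 2 arrays per group. In 5 simulations with 200 changed probe sets among 14878, the fit recovered 73.6% of 2-fold and 98.0% of 4-fold changes, with 9.8 false calls on average. The simulated noise was normal and independent between arrays, at the spread that the fit itself estimated. These rates therefore need not hold for the deposited arrays.

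Named genes are the 15 highest and 15 lowest calls whose arrays did not overlap, 1 probe set per gene, up to 4 members of each list by adjusted p, GI and SEC, and the 5 highest and 5 lowest probe sets without a single gene. Comparison, lists and rules were chosen with earlier results of these data known. A share of promoters with clock motifs had been planned and was not run.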

Additional observations from a re-analysis of the deposited data

Results flagged for a closer look

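The control signal for 25S ribosomal RNA, a control probe set left out of the tests and used only as a covariate in an alternative fit, was 538 on lhy cca1 replicate 2 before dawn, above the 142 and 57.7 of the WS arrays and the 63.0 of lhy cca1 replicate 1.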

How the results depend on the processing

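The count of 239 calls stayed within 1.5 times, at 194 to 299, under quantile scaling, median centring, log2(value + 16), no filter, a stricter filter, a fit of the 4 arrays alone and robust variance. It was 410 with the replicate number as a block (225 higher, 185 lower, all 239 among them, and the IVD, LHCB4.3, ATPC1 and psaA differences past the threshold), 124 without the intensity trend and 152 with the 25S signal as a covariate. The cause was not tested. Leaving out 1 array gave 45 to 187 calls. No named difference past the threshold changed sign. Replicate numbers are shared between groups, but nothing in the labels pairs samples, so the numbers were not taken as pairs. Replicate 1 deviations of WS and lhy cca1 before dawn correlated at 0.116. Over 28 pairs of groups the correlations ran from -0.02 to 0.269, with 15 over 0.1 and the others at or under it. Whether arrays with the same replicate number share an effect was not tested beyond the fit with that number as a block. Of the 30 strongest named genes, 20 stayed past the threshold without the intensity trend and 13 without lhy cca1 replicate 2. With 2 arrays per group, differences under 2-fold in dim genes are poorly resolved. The planned promoter alternatives were not run.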
